A study of Mus musculus with 9 samples.

Results

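In the jejunum of mice that received total abdominal irradiation (TAI) followed by intravenous immunoglobulin (IVIg), 3118 of the 12381 genes tested still differed from untreated tissue on day 3 after irradiation. Of these, 1149 were higher and 1969 lower than in control mice. The genes tested were those that reached 1 FPKM (a level in fragments scaled to transcript length and library total) in at least 3 of the 6 mice compared, out of 31685 genes in the table. The control group was 3 untreated C57BL/6J mice. The TAI/IVIg group was 3 C57BL/6J mice given a single 12 Gy dose of X-rays to the abdomen, then 500 mg/kg IVIg into the vein within 1 h and again every 3 days, with the number of injections before sampling not given. All were wild-type males aged 6 to 8 weeks, and the labels place all libraries in 1 batch. For irradiation mice were anaesthetized with pentobarbital sodium. Whether the control mice, labelled as given no treatment, were anaesthetized is not stated. Another group of 3 mice received 12 Gy TAI without IVIg. Its values are shown in some of the figures and, for some genes and lists only, in the last part of the results. Each library came from the jejunum of 1 mouse.

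The small intestinal epithelium is renewed from dividing stem cells at the base of the crypts, whose daughters move up onto the villi, mature into absorptive enterocytes or secretory cells, and are shed at the villus tip. Ionizing radiation damages DNA and kills dividing crypt cells first, so that the supply of young cells to the villi is interrupted while older enterocytes remain. Enterocytes of the upper small intestine digest sugars and peptides at the brush border and package fat into chylomicrons, whereas those of the ileum take up bile acids. IVIg is a preparation of immunoglobulin G pooled from human donors.

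The 6 libraries held 16771223 to 17983912 reads assigned to genes, so depth was similar in all of them. Fewer genes reached 1 FPKM in TAI/IVIg mice (10386 to 11840) than in control mice (12198 to 13394), and the 10 most abundant genes held a larger part of the FPKM in TAI/IVIg mice (23.1% to 27.3%) than in control mice (14.8% to 19.3%). The median log2 fold change over all genes tested was -0.41 with the FPKM as deposited and 0.07 after the library medians were set equal, a shift of 0.48. A gene was therefore called higher or lower only when limma gave an adjusted p below 0.05 and the same sign on both scales. This rule called 9.28% of the genes higher and 15.9% lower. The deposited scale alone called 1149 higher and 4867 lower (9.28% and 39.3%), and the median-centred scale alone called 2707 higher and 1969 lower (21.9% and 15.9%). Log2 fold changes below are TAI/IVIg minus control on the log2(FPKM + 1) scale with FPKM as deposited, which understates the change of genes at a few FPKM. Whichever of the 6 mice was left out, 786 of the 1149 and 1300 of the 1969 calls remained.

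Among the called genes, 501 rose and 1651 fell by a factor of at least 2 on the deposited scale. On the median-centred scale, where log2 fold changes run 0.48 higher, these numbers were not counted, so their split depends on the scale. The values of the 3 TAI/IVIg mice lay outside those of the 3 control mice for 1127 of the genes called higher and 1967 of those called lower. A call with 3 mice per group makes such separation likely, so a lack of overlap in a called gene, here and below, is not separate support. Its share over all genes tested was not counted. Of the genes tested, 9432 reached 1 FPKM in all 6 mice, and 10.4% of these were called higher and 15.3% lower. Another 510 reached it in the 3 control mice and in no TAI/IVIg mouse, of which 219 were called lower, while 90 reached it in the 3 TAI/IVIg mice alone, of which 82 were called higher. Genes of these last groups passed the filter only through the group in which they were high. The 95% confidence interval of the fold change lay within 1.5-fold of control on both scales for 319 genes. Leaving out control mouse 1 or 2 brought that number to 13 or 43, and leaving out mouse 2 or 3 of the treated group to 4 or 193. In tissue RNA, fewer cells of a type and less RNA per cell cannot be told apart.

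**Figure D1:**
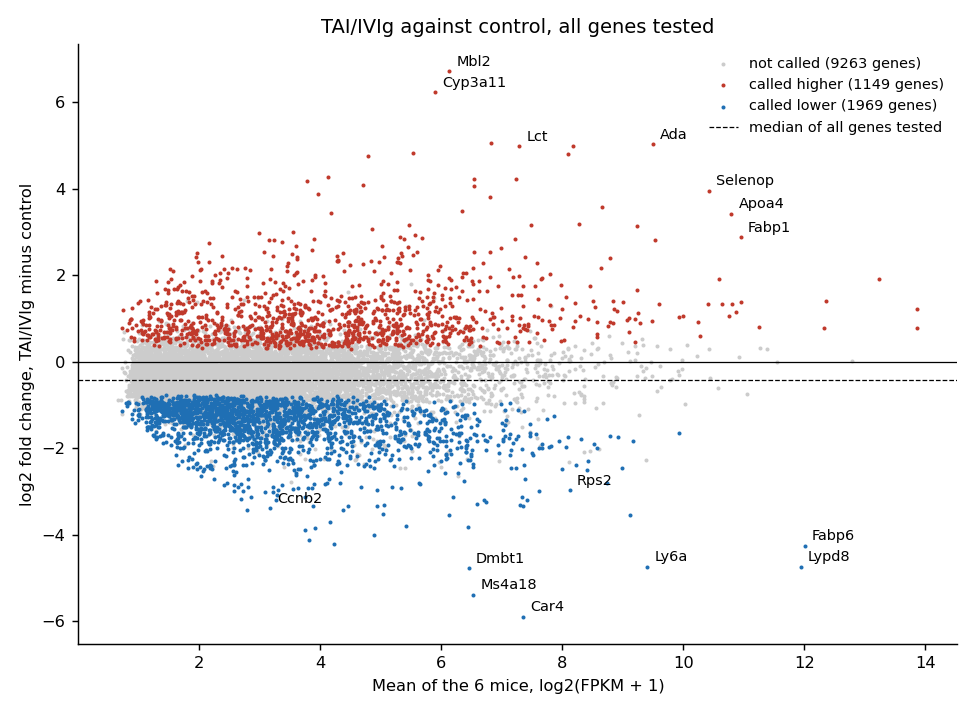
Each point is 1 of the 12381 genes tested, with its mean level in the 6 mice (log2 of FPKM + 1) on the x axis and its log2 fold change (TAI/IVIg minus control) on the y axis; red points were called higher, blue points lower and grey points neither. The dashed line marks the median of all genes, -0.41, and the largest changes run from Mbl2 at 6.72 to Car4 at -5.89.

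The labels describe the tissue as jejunal epithelium. The epithelial gene Vil1, which encodes the microvillus protein villin, stood at 1157, 1030 and 794 FPKM in control and 1043, 1088 and 918 FPKM in TAI/IVIg mice. Smooth muscle genes were present too. Acta2, encoding smooth muscle actin, stood at 203, 193 and 266 FPKM in control and 218, 111 and 44.2 FPKM in TAI/IVIg mice, and 20 of the 21 smooth muscle genes listed passed the filter. The samples thus held RNA of muscle as well as epithelium.

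The 15 largest rises ran from Mbl2 to Slc46a1. Genes were eligible for this list, and for that of the 15 largest falls, only where the 3 TAI/IVIg mice did not overlap the 3 control mice. Mbl2, which encodes a mannose-binding lectin of innate immunity, stood at 0.0528, 0.260 and 0.212 FPKM in the control mice and 60.7, 143 and 209 FPKM in the TAI/IVIg mice (log2 fold change 6.72 ± 0.57 (SE), adjusted p = 1.49e-04). The control values rest on 1, 5 and 4 reads, against 1188, 2651 and 3815 in TAI/IVIg mice. Mbl2, and Dio1 and Slc46a1 below, passed the filter through the TAI/IVIg mice alone and could only be higher. Cyp3a11, a cytochrome P450 that oxidizes drugs and bile acids, stood at 0.237, 1.04 and 0.363 FPKM in the control mice and 83.8, 158 and 106 FPKM in the TAI/IVIg mice (log2 fold change 6.23 ± 0.26 (SE), adjusted p = 1.17e-05). In both genes the groups were far apart, and the lowest TAI/IVIg mouse exceeded the highest control mouse. Ada, which encodes the adenosine-degrading enzyme adenosine deaminase, stood at 52.6, 23.2 and 46.3 FPKM in the control mice and 2148, 777 and 1279 FPKM in the TAI/IVIg mice (log2 fold change 5.03 ± 0.48 (SE), adjusted p = 2.48e-04). The nucleoside transporter gene Slc28a2 stood at 18.9, 9.76 and 24.8 FPKM in control and 783, 320 and 472 FPKM in TAI/IVIg mice (log2 fold change 4.80, adjusted p = 1.83e-04). Nt5e, whose ecto-enzyme makes adenosine outside the cell, stood at 1.54, 1.29 and 2.69 FPKM in control and 65.03, 29.8 and 49.9 FPKM in TAI/IVIg mice (log2 fold change 4.08, adjusted p = 2.94e-04). Enpp3, a surface enzyme that cleaves extracellular nucleotides, stood at 9.19, 4.27 and 4.08 FPKM in control and 205, 180 and 268 FPKM in TAI/IVIg mice (log2 fold change 5.06, adjusted p = 3.96e-05). Ada, Slc28a2 and Nt5e are known as genes of enterocytes near the villus tip. On the GRCm38 assembly Mbl2 lies at chr19:30232942-30239687, Cyp3a11 at chr5:145854426-145879964 and Ada at chr2:163726584-163750239.

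Dio1, which encodes a deiodinase that activates thyroid hormone, stood at 0.584, 0.804 and 0.616 FPKM in control and 27.97, 25.2 and 43.4 FPKM in TAI/IVIg mice (log2 fold change 4.28, adjusted p = 3.96e-05). Selenop, which encodes the selenium carrier selenoprotein P, stood at 212, 155 and 131 FPKM in control and 2974, 2111 and 2611 FPKM in TAI/IVIg mice (log2 fold change 3.95, adjusted p = 3.96e-05), with even the lowest TAI/IVIg mouse far above the highest control mouse. Slc46a1, the proton-coupled folate transporter, stood at 0.934, 0.9002 and 0.938 FPKM in control and 21.6, 23.8 and 39.4 FPKM in TAI/IVIg mice (log2 fold change 3.88, adjusted p = 5.06e-05). Slc23a4, of the nucleobase and ascorbate transporter family, stood at 12.1, 5.88 and 9.20 FPKM in control and 270, 98.6 and 156 FPKM in TAI/IVIg mice (log2 fold change 4.06, adjusted p = 1.83e-04). Susd2, a membrane protein gene, stood at 8.91, 8.52 and 7.15 FPKM in control and 211, 130 and 185 FPKM in TAI/IVIg mice (log2 fold change 4.24, adjusted p = 3.96e-05).

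**Figure D2:**
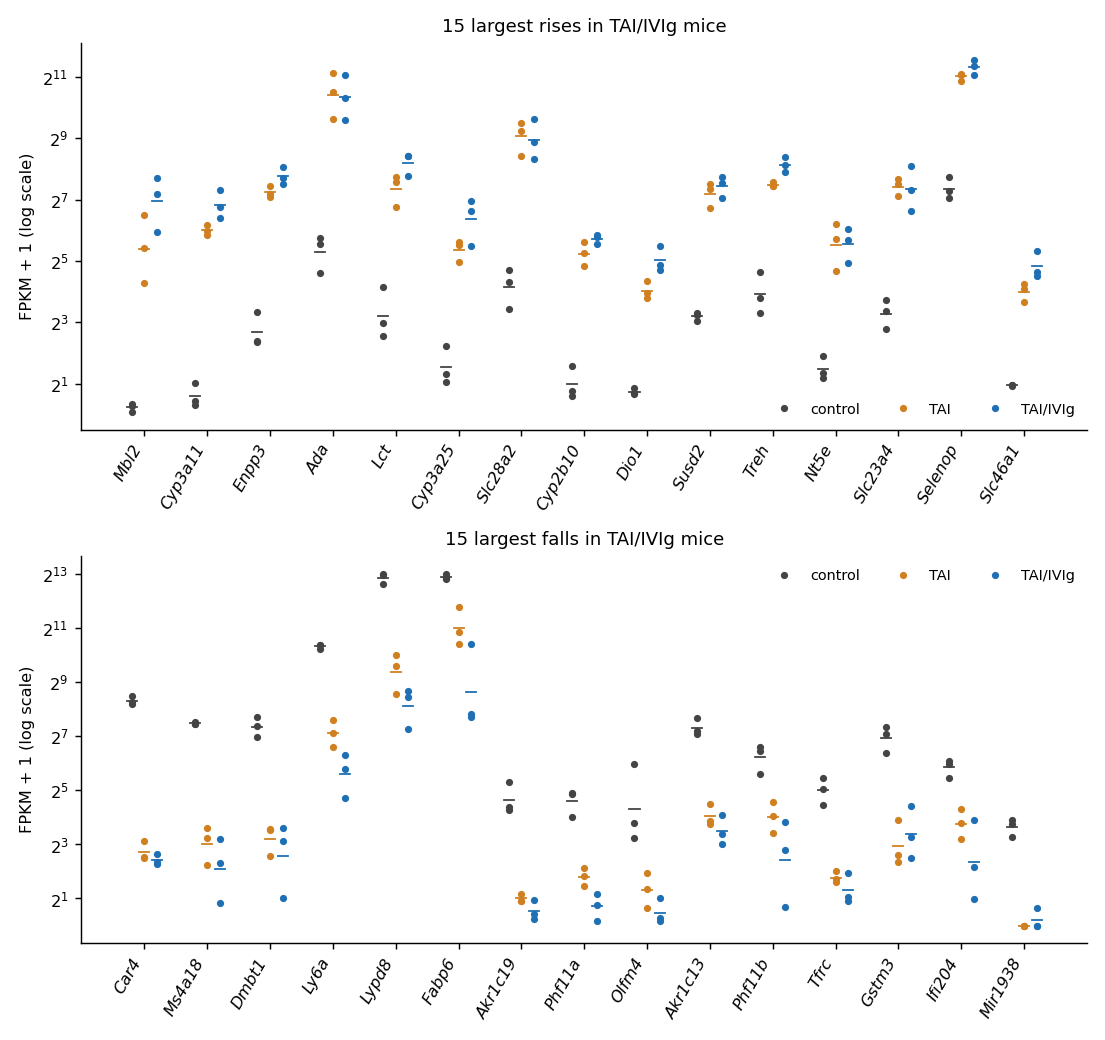
Each dot is 1 mouse and each short line the mean of 3 mice on the log scale, with FPKM + 1 on a base-2 log axis; the upper panel holds the 15 largest rises and the lower panel the 15 largest falls in TAI/IVIg (blue) against control (grey), with the TAI mice in orange. The TAI/IVIg and control mice do not overlap in any of these genes, which was a condition of their choice.

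Brush border enzymes, which finish the digestion of sugars, peptides and lipids at the enterocyte surface, rose in part. Of 19 genes tested, 11 rose and 0 fell, and the median log2 fold change was 0.86 against -0.41 for all genes tested. The medians given in brackets for the lists that follow are likewise median log2 fold changes, and their counts stand against 9.28% higher and 15.9% lower over all genes tested. Lct, which encodes lactase, stood at 6.84, 16.6 and 4.82 FPKM in the control mice and 216, 341 and 343 FPKM in the TAI/IVIg mice (log2 fold change 4.99 ± 0.42 (SE), adjusted p = 1.49e-04). Treh, encoding the enzyme that splits trehalose, stood at 12.9, 23.6 and 8.88 FPKM in control and 237, 275 and 336 FPKM in TAI/IVIg mice (log2 fold change 4.22, adjusted p = 8.30e-05). Sis, encoding sucrase-isomaltase, did not follow these: it stood at 375, 510 and 257 FPKM in control and 103, 335 and 194 FPKM in TAI/IVIg mice and was not called (log2 fold change -0.95, adjusted p = 0.0845). Its values overlapped between the groups, with TAI/IVIg mouse 1 the lowest of the 6.

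Of 30 nutrient and ion transporter genes tested, 12 rose, 1 of them a gene that passed the filter through the TAI/IVIg mice alone, and 4 fell (median 0.55). The lactate and short-chain fatty acid carrier gene Slc5a12 rose from 18.99, 6.98 and 9.84 FPKM in control to 48.03, 85.6 and 59.2 FPKM in TAI/IVIg mice (log2 fold change 2.40, adjusted p = 0.00115). The peptide carrier gene Slc15a1 stood at 103, 81.2 and 61.6 FPKM in control and 227, 230 and 247 FPKM in TAI/IVIg mice (log2 fold change 1.54, adjusted p = 0.00139). The sodium-glucose carrier gene Slc5a1 rose less (442, 371 and 267 FPKM in control and 501, 846 and 784 FPKM in TAI/IVIg mice, log2 fold change 0.97, adjusted p = 0.0111). In none of these did the mice of the groups overlap. The members that fell were Car4, Slc1a1, Slc51a and Slc20a1. Slc1a1, which encodes a glutamate carrier, stood at 7.75, 9.43 and 8.53 FPKM in control and 1.45, 1.20 and 1.13 FPKM in TAI/IVIg mice (log2 fold change -2.08, adjusted p = 5.06e-05). Slc51a, which encodes a subunit of the bile acid exporter of the basolateral membrane, stood at 310, 249 and 241 FPKM in control and 95.005, 85.4 and 72.5 FPKM in TAI/IVIg mice (log2 fold change -1.65, adjusted p = 0.00133). In both genes every TAI/IVIg mouse was below every control mouse.

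Genes that absorb fat and build chylomicrons rose in 14 of 27 cases, with 1 fall (median 0.51). Apoc3, an apolipoprotein of chylomicrons, stood at 62.7, 72.4 and 46.4 FPKM in the control mice and 745, 567 and 914 FPKM in the TAI/IVIg mice (log2 fold change 3.59 ± 0.22 (SE), adjusted p = 5.06e-05). Apoa4 stood at 435, 230 and 271 FPKM in control and 3031, 3014 and 3662 FPKM in TAI/IVIg mice (log2 fold change 3.42, adjusted p = 9.40e-05). Apob, which encodes the structural protein of the particle, stood at 187, 133 and 106 FPKM in control and 808, 683 and 720 FPKM in TAI/IVIg mice (log2 fold change 2.41, adjusted p = 1.53e-04). All 3 TAI/IVIg mice were several times above every control mouse for each of these apolipoproteins. The fatty acid-binding protein gene Fabp1 stood at 612, 350 and 349 FPKM in control and 1477, 4870 and 4182 FPKM in TAI/IVIg mice (log2 fold change 2.88, adjusted p = 0.00150), with TAI/IVIg mouse 1 well below the other two. Fabp2 and Apoa1 had the largest gains of mean FPKM. Fabp2, another fatty acid-binding protein gene, stood at 11125, 9034 and 6932 FPKM in control and 23638, 19673 and 18562 FPKM in TAI/IVIg mice (log2 fold change 1.21, adjusted p = 0.0177). Apoa1, of high-density lipoprotein and chylomicrons, stood at 5160, 3989 and 3170 FPKM in control and 16237, 12898 and 16539 FPKM in TAI/IVIg mice (log2 fold change 1.91, adjusted p = 0.00159). Leaving out control mouse 2 or TAI/IVIg mouse 1 ended the call for Fabp2, whose log2 fold change was 1.03 to 1.37 over the 6 omissions. The member that fell was Acat2, whose cytosolic enzyme makes acetoacetyl-CoA (5.75, 13.2 and 9.51 FPKM in control and 1.97, 3.19 and 2.74 FPKM in TAI/IVIg mice, log2 fold change -1.48, adjusted p = 0.00314).

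Of 24 fatty acid oxidation genes 4 rose and 5 fell (median -0.22), shares not far from those over all genes tested. Cpt1a, whose enzyme commits fatty acids to mitochondrial oxidation, stood at 20.3, 18.8 and 24.6 FPKM in control and 4.86, 7.83 and 4.22 FPKM in TAI/IVIg mice (log2 fold change -1.77, adjusted p = 4.52e-04). Cpt2, the next enzyme of that shuttle, stood at 68.9, 59.4 and 59.5 FPKM in control and 18.9, 25.4 and 24.4 FPKM in TAI/IVIg mice (log2 fold change -1.42, adjusted p = 5.19e-04). Angptl4, an inhibitor of lipoprotein lipase, stood at 23.4, 20.2 and 19.4 FPKM in control and 3.89, 9.52 and 3.30 FPKM in TAI/IVIg mice (log2 fold change -1.86, adjusted p = 0.00373). The members that rose included the pantetheinase gene Vnn1 (107, 62.9 and 68.5 FPKM in control and 227, 235 and 222 FPKM in TAI/IVIg mice, log2 fold change 1.55, adjusted p = 6.70e-04). The peroxisomal thiolase gene Acaa1b (0.675, 1.96 and 0.559 FPKM in control and 3.57, 13.05 and 7.63 FPKM in TAI/IVIg mice, log2 fold change 2.05, adjusted p = 0.00458) and the mitochondrial dehydrogenase gene Hadh (46.7, 60.1 and 44.5 FPKM in control and 77.8, 112 and 124 FPKM in TAI/IVIg mice, log2 fold change 1.02, adjusted p = 0.00307) rose too.

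In the cholesterol synthesis list 9 of 23 genes fell, 1 of which passed the filter through the control mice alone, and 2 rose (median -1.02). Sqle, whose enzyme makes squalene epoxide, stood at 32.1, 21.4 and 29.8 FPKM in control and 5.33, 9.13 and 6.34 FPKM in TAI/IVIg mice (log2 fold change -1.87, adjusted p = 0.00283). The synthase gene Hmgcs1 was not called, since its difference passed on the deposited scale alone (66.4, 48.3 and 65.7 FPKM in control and 22.3, 34.8 and 30.2 FPKM in TAI/IVIg mice, log2 fold change -1.03, adjusted p of 0.0303 as deposited and 0.228 median-centred). Against this direction Sc5d, a late enzyme of the pathway, rose without overlap (24.1, 26.1 and 20.95 FPKM in control and 34.5, 39.4 and 43.1 FPKM in TAI/IVIg mice, log2 fold change 0.69, adjusted p = 0.00522). The count of falls rested on single mice: it was 4 without control mouse 2 and 5 without TAI/IVIg mouse 2 or 3.

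Drug-metabolizing genes rose in 19 of 37 cases and fell in 7 (median 0.67), with 2 of the rises in genes that passed the filter through the TAI/IVIg mice alone. Besides Cyp3a11, the P450 genes Cyp3a25 (1.49, 3.69 and 1.05 FPKM in control and 43.8, 124 and 97.3 FPKM in TAI/IVIg mice, log2 fold change 4.83, adjusted p = 1.58e-04) and Cyp2b10 (0.681, 1.96 and 0.520 FPKM in control and 54.1, 45.9 and 56.1 FPKM in TAI/IVIg mice, log2 fold change 4.75, adjusted p = 4.74e-05) rose strongly. The falls were led by glutathione transferases. Gstm3 stood at 136, 161 and 83.4 FPKM in control and 4.71, 20.3 and 8.64 FPKM in TAI/IVIg mice (log2 fold change -3.55, adjusted p = 0.00136) and Gsta1 at 197, 230 and 133 FPKM in control and 11.3, 31.5 and 18.8 FPKM in TAI/IVIg mice (log2 fold change -3.20, adjusted p = 3.51e-04). The carboxylesterase gene Ces1f stood at 21.002, 32.1 and 20.8 FPKM in control and 1.10, 4.50 and 2.14 FPKM in TAI/IVIg mice (log2 fold change -2.92, adjusted p = 6.78e-04). None of these 5 genes overlapped between the groups, and TAI/IVIg mouse 2 was the highest treated mouse in the 3 that fell. The glutathione transferases did not fall as a whole. Gsta4 (log2 fold change -1.816) and Gstp1 (-1.927) were called lower too, but Gstm6 (1.626) and Gstk1 (1.199) were called higher and Gstm1 (-0.535) was not called. Close relatives within the Cyp3a, Cyp2c, Gstm, Gsta and Ces1 families share sequence, and reads between them may be divided imperfectly. Whether the anaesthetic given for irradiation bears on the drug-metabolizing genes was not tested.

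In a list that joined general antioxidant genes with genes of the stress factor NRF2 and its targets, 8 of 28 genes fell and 3 rose (median -0.55). Nqo1, a quinone reductase, stood at 30.05, 28.7 and 28.4 FPKM in control and 2.61, 5.31 and 2.57 FPKM in TAI/IVIg mice (log2 fold change -2.79, adjusted p = 1.14e-04). Gsr, which regenerates reduced glutathione, stood at 247, 213 and 253 FPKM in control and 30.2, 52.9 and 47.98 FPKM in TAI/IVIg mice (log2 fold change -2.45, adjusted p = 1.47e-04). These groups were far apart, with tight controls. The peroxiredoxin gene Prdx6 stood at 105, 118 and 104 FPKM in control and 10.5, 37.7 and 27.9 FPKM in TAI/IVIg mice (log2 fold change -2.23, adjusted p = 0.00281). Cat, encoding catalase, rose (17.9, 23.3 and 25.4 FPKM in control and 86.2, 109 and 104 FPKM in TAI/IVIg mice, log2 fold change 2.13, adjusted p = 9.62e-05). So did Gclm, encoding the modifier subunit of glutathione synthesis (12.8, 14.2 and 10.8 FPKM in control and 19.2, 22.003 and 21.95 FPKM in TAI/IVIg mice, log2 fold change 0.71, adjusted p = 0.00550). The catalytic subunit gene Gclc fell (83.3, 48.2 and 55.6 FPKM in control and 28.4, 19.003 and 11.7 FPKM in TAI/IVIg mice, log2 fold change -1.66, adjusted p = 0.00358). Without control mouse 1 or TAI/IVIg mouse 3 the number of falls was 4, and Gclc was among the calls lost. Gclc was not called without TAI/IVIg mouse 2 either.

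Of 25 transcription factors of enterocytes, 7 rose and 2 fell (median 0.03). Hnf4a, which maintains enterocyte identity, stood at 218, 194 and 171 FPKM in control and 227, 177 and 202 FPKM in TAI/IVIg mice and was not called (log2 fold change 0.05, adjusted p = 0.780). Cdx2, which specifies intestine, was not called either (83.5, 63.8 and 74.9 FPKM in control and 45.4, 47.8 and 70.4 FPKM in TAI/IVIg mice, log2 fold change -0.45, adjusted p = 0.0671). Creb3l3, a regulator of apolipoprotein genes, rose (108, 73.9 and 68.2 FPKM in control and 364, 271 and 310 FPKM in TAI/IVIg mice, log2 fold change 1.93, adjusted p = 2.92e-04), and so did the endodermal factor gene Gata6 (8.05, 6.77 and 6.08 FPKM in control and 16.7, 16.03 and 16.1 FPKM in TAI/IVIg mice, log2 fold change 1.12, adjusted p = 8.06e-04). Nr1h4, the bile acid receptor FXR, fell (50.7, 41.7 and 49.9 FPKM in control and 14.1, 17.1 and 14.4 FPKM in TAI/IVIg mice, log2 fold change -1.58, adjusted p = 1.83e-04). Nr5a2, a nuclear receptor of crypts and bile acid metabolism, fell as well (4.76, 7.45 and 6.10 FPKM in control and 0.556, 1.70 and 0.869 FPKM in TAI/IVIg mice, log2 fold change -1.82, adjusted p = 6.63e-04). Prdm1, which represses the adult program in fetal intestine, was called higher, with TAI/IVIg mouse 1 far above the other two (5.44, 3.98 and 4.07 FPKM in control and 22.9, 7.18 and 8.89 FPKM in TAI/IVIg mice, log2 fold change 1.19, adjusted p = 0.0213). Its call was lost without control mouse 2 or 3, its log2 fold change without TAI/IVIg mouse 1 was 0.72, and the list's count of rises was 4 without control mouse 3.

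Among the 15 largest falls, Lypd8, Ly6a and Fabp6 were also among the 5 largest losses of mean FPKM. Car4, a membrane carbonic anhydrase, stood at 356, 309 and 291 FPKM in the control mice and 5.23, 3.89 and 4.12 FPKM in the TAI/IVIg mice (log2 fold change -5.89 ± 0.19 (SE), adjusted p = 2.25e-06). Lypd8, which encodes a secreted protein that keeps flagellated bacteria from the epithelium, stood at 8041, 8284 and 6348 FPKM in the control mice and 349, 414 and 153 FPKM in the TAI/IVIg mice (log2 fold change -4.74 ± 0.44 (SE), adjusted p = 2.24e-04). Ly6a, which encodes the surface protein SCA-1, stood at 1345, 1214 and 1333 FPKM in the control mice and 77.99, 54.5 and 25.2 FPKM in the TAI/IVIg mice (log2 fold change -4.74 ± 0.39 (SE), adjusted p = 1.48e-04). In each the 3 TAI/IVIg mice were more than a factor of 10 below every control mouse. On GRCm38 Car4 lies at chr11:84957786-84966044, Lypd8 at chr11:58379043-58390728 and Ly6a at chr15:74994877-74998031. Dmbt1, a scavenger receptor-like mucosal defence protein, stood at 207, 126 and 166 FPKM in control and 1.02, 11.3 and 7.69 FPKM in TAI/IVIg mice (log2 fold change -4.77, adjusted p = 7.01e-04). Ms4a18, of the membrane-spanning 4-domain family, stood at 182, 177 and 176 FPKM in control and 0.765, 8.10 and 3.98 FPKM in TAI/IVIg mice (log2 fold change -5.38, adjusted p = 3.26e-04). In both genes TAI/IVIg mouse 1 was far below the other treated mice, and the groups did not overlap.

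The aldo-keto reductase gene Akr1c13 stood at 147, 203 and 136 FPKM in control and 9.58, 16.2 and 7.03 FPKM in TAI/IVIg mice (log2 fold change -3.82, adjusted p = 1.47e-04), and its paralog Akr1c19 at 18.3, 38.98 and 19.8 FPKM in control and 0.359, 0.929 and 0.182 FPKM in TAI/IVIg mice (log2 fold change -4.11, adjusted p = 8.52e-05). Reads between the copies of this family may be divided imperfectly. Tfrc, the transferrin receptor that takes up iron in dividing cells, stood at 21.1, 43.1 and 32.6 FPKM in control and 0.881, 2.89 and 1.07 FPKM in TAI/IVIg mice (log2 fold change -3.69, adjusted p = 1.58e-04). The PHD finger genes Phf11a (28.1, 15.3 and 28.6 FPKM in control and 1.27, 0.695 and 0.132 FPKM in TAI/IVIg mice, log2 fold change -3.89, adjusted p = 1.48e-04) and Phf11b (87.5, 47.2 and 96.01 FPKM in control and 13.2, 5.87 and 0.604 FPKM in TAI/IVIg mice, log2 fold change -3.79, adjusted p = 0.00286) were also far below control. The interferon-inducible gene Ifi204 stood at 67.9, 43.5 and 61.6 FPKM in control and 14.04, 3.44 and 0.954 FPKM in TAI/IVIg mice (log2 fold change -3.51, adjusted p = 0.00265). In Phf11b and Ifi204 the TAI/IVIg mice differed widely, with mouse 1 the highest and mouse 3 the lowest. Mir1938, a microRNA locus, held 24, 22 and 15 reads in the control mice and 1, 0 and 0 reads in the TAI/IVIg mice (adjusted p = 5.89e-05). Akr1c19 and Mir1938 passed the filter through the control mice alone and could only be lower.

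Over the whole list of inducible epithelial defence, 4 of 20 genes fell and 2 rose (median -0.21). Il18, an epithelial cytokine, stood at 291, 208 and 170 FPKM in control and 26.05, 81.6 and 65.5 FPKM in TAI/IVIg mice (log2 fold change -2.05, adjusted p = 0.00319). The C-type lectin genes Reg3b (11698, 2956 and 6331 FPKM in control and 3085, 6363 and 11811 FPKM in TAI/IVIg mice, log2 fold change 0.03, adjusted p = 0.972) and Reg3g (4090, 1390 and 2307 FPKM in control and 603, 1632 and 2771 FPKM in TAI/IVIg mice, log2 fold change -0.75, adjusted p = 0.302) were not called, and their mice varied severalfold within each group. Gsdmd, encoding gasdermin D, the pore-forming protein of pyroptosis, rose (172, 115 and 134 FPKM in the control mice and 407, 358 and 405 FPKM in the TAI/IVIg mice, log2 fold change 1.49 ± 0.17 (SE), adjusted p = 4.30e-04). Reg3a was called higher (20.4, 45.3 and 18.1 FPKM in control and 38.4, 60.8 and 94.8 FPKM in TAI/IVIg mice, log2 fold change 1.21, adjusted p = 0.0393), although its groups overlapped, a call lost without control mouse 1 or 3 or TAI/IVIg mouse 2 or 3, each of which left 1 rise in the list.

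Genes of cell division fell. Of 32 mitosis genes listed, 25 passed the filter and 25 of these fell (median -2.21, and -1.73 median-centred), and 24 of the calls remained whichever mouse was left out. Of the 25, 16 reached 1 FPKM in the control mice alone and could only be lower, and the other 9 fell as well. Many genes of mitosis are switched on late in the cycle through a CCAAT box and a cell cycle genes homology region (CHR, TTTGAA) near the start site. The stretches below run from 90 bases before to 30 bases after the RefSeq start on GRCm38.p6, written 5′ to 3′ on the strand of the gene, with matches to CCAAT and TTTGAA on either strand in capitals, and show these elements in members that fell.
Ccnb2, chr9:70421525-70421644 (- strand): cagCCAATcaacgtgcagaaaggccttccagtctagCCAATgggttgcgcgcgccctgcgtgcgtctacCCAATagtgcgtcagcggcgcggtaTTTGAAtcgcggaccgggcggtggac
Ube2c, chr2:164769839-164769958 (+ strand): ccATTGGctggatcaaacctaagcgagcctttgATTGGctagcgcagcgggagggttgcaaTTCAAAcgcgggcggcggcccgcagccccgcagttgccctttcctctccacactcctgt
Top2a, chr11:99024160-99024279 (- strand): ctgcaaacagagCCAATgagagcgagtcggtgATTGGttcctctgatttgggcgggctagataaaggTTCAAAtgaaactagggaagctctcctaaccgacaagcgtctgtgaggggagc
In the 300 bases from 250 before to 50 after the start, TTTGAA occurred in 16 of 22 promoters of the 21 mitosis genes matched by symbol and in 17.9% of all 32851 promoters. CCAAT occurred in 20 of the 22 and in 37.4% of all. A match is a description of the letters and was not tested as a site.

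Ccnb2, encoding cyclin B2, stood at 7.33, 19.995 and 19.2 FPKM in the control mice and 0.436, 0.692 and 0.273 FPKM in the TAI/IVIg mice (log2 fold change -3.39 ± 0.34 (SE), adjusted p = 2.92e-04). Ube2c, whose product marks cyclins for destruction, stood at 8.10, 22.5 and 18.5 FPKM in control and 0.257, 1.74 and 0.619 FPKM in TAI/IVIg mice (log2 fold change -3.18, adjusted p = 8.17e-04). Ccna2, encoding cyclin A2, stood at 5.68, 17.5 and 13.1 FPKM in control and 0.177, 0.793 and 0.234 FPKM in TAI/IVIg mice (log2 fold change -3.13, adjusted p = 4.65e-04). The proliferation marker Mki67 stood at 5.62, 12.7 and 12.6 FPKM in control and 0.304, 0.860 and 0.415 FPKM in TAI/IVIg mice (log2 fold change -2.83, adjusted p = 2.92e-04). Top2a, whose enzyme untangles chromosomes, stood at 3.90, 12.3 and 12.3 FPKM in control and 0.0987, 0.855 and 0.159 FPKM in TAI/IVIg mice (log2 fold change -2.84, adjusted p = 9.81e-04). In all of these control mouse 1 was the lowest control, TAI/IVIg mouse 2 the highest treated mouse, and the groups did not overlap. Ccnb2, Ccna2, Mki67 and Top2a passed the filter through the control mice alone and could only be lower.

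Of 27 DNA replication and nucleotide synthesis genes, 20 fell and 0 rose (median -1.42), and of the 6 that passed the filter through the control mice alone 6 fell. Rrm2, the regulated subunit of ribonucleotide reductase, stood at 5.52, 14.7 and 13.5 FPKM in control and 0.361, 1.51 and 0.559 FPKM in TAI/IVIg mice (log2 fold change -2.71, adjusted p = 7.88e-04). Uhrf1, which copies DNA methylation, stood at 3.12, 9.42 and 8.19 FPKM in control and 0.118, 0.746 and 0.196 FPKM in TAI/IVIg mice (log2 fold change -2.47, adjusted p = 9.98e-04). Dut, which removes dUTP, stood at 4.70, 11.5 and 10.9 FPKM in control and 0.5999, 1.49 and 0.569 FPKM in TAI/IVIg mice (log2 fold change -2.36, adjusted p = 0.00102). For these 3 genes the order of the mice was as for the mitosis genes, with TAI/IVIg mouse 2 the highest treated mouse. Uhrf1 passed the filter through the control mice alone and could only be lower. Pcna, the replication clamp, fell less (25.1, 48.1 and 44.3 FPKM in control and 15.4, 21.9 and 15.7 FPKM in TAI/IVIg mice, log2 fold change -1.07, adjusted p = 0.00763), and its call was lost without control mouse 2 or 3 or TAI/IVIg mouse 1 or 3. Mcm2, a subunit of the replicative helicase, did not pass on both scales (1.46, 3.71 and 4.87 FPKM in control and 1.35, 1.17 and 0.617 FPKM in TAI/IVIg mice, adjusted p of 0.0219 as deposited and 0.108 median-centred), but did without control mouse 1. Without TAI/IVIg mouse 1 or 2, 1 gene of the list was called higher. TTTGAA occurred in 1 of 26 promoters of this list.

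Genes of protein synthesis fell together. Of 83 cytoplasmic ribosomal protein genes, 78 fell and 0 rose (median -1.80, and -1.32 median-centred), and 71 of the calls remained whichever mouse was left out. The 5 that were not called, named here after their values were seen, were Rps27l, Rps10, Rps3a3, Rps4l and Rps27, all with negative fold changes. Rps2 stood at 320, 596 and 553 FPKM in the control mice and 45.7, 110 and 42.2 FPKM in the TAI/IVIg mice (log2 fold change -2.96 ± 0.37 (SE), adjusted p = 7.00e-04). Rpsa, which encodes another small subunit protein, stood at 165, 268 and 323 FPKM in control and 31.7, 80.6 and 32.7 FPKM in TAI/IVIg mice (log2 fold change -2.45, adjusted p = 0.00143). Rpl14 stood at 87.1, 174 and 198 FPKM in control and 19.9, 49.1 and 17.7 FPKM in TAI/IVIg mice (log2 fold change -2.43, adjusted p = 0.00208). Control mouse 1 was the lowest control and TAI/IVIg mouse 2 the highest treated mouse in all 3 genes, without overlap. The elongation factor gene Eef1a1, 1 of the 5 largest losses of mean FPKM, stood at 996, 1560 and 1854 FPKM in control and 367, 720 and 349 FPKM in TAI/IVIg mice (log2 fold change -1.65, adjusted p = 0.00366). Ribosomal protein genes have many processed copies in the genome, so reads may be divided imperfectly among them.

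Chaperones of the endoplasmic reticulum (ER) and genes of the integrated stress response also fell, 17 of 32 lower and 1 higher (median -1.50), with 1 fall in a gene that passed the filter through the control mice alone. Many ER chaperone genes are driven by an ER stress element (ERSE), CCAAT and CCACG parted by 9 bases of any kind, which includes a CCAAT box. The stretches below, each of 100 bases within the 250 bases before the RefSeq start on GRCm38.p6 and on the strand of the gene, carry that element, whose defined letters are in capitals on either strand, in members that fell.
Pdia6, chr12:17266451-17266550 (+ strand): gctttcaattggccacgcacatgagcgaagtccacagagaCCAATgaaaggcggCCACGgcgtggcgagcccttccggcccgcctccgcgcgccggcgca
Creld2, chr15:88819480-88819579 (+ strand): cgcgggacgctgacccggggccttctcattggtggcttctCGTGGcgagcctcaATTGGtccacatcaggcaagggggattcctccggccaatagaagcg
Hspa5, chr2:34771985-34772084 (+ strand): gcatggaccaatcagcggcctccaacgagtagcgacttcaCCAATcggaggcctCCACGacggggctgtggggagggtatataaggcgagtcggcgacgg
The element occurred in 8 of 29 promoters of the 28 genes matched by symbol, and in 0.119% of all promoters. Pdia6, a protein disulfide isomerase gene, stood at 74.4, 108 and 78.98 FPKM in the control mice and 10.3, 13.9 and 10.01 FPKM in the TAI/IVIg mice (log2 fold change -2.83 ± 0.19 (SE), adjusted p = 7.64e-05). Creld2 stood at 126, 170 and 101 FPKM in control and 18.3, 20.9 and 24.4 FPKM in TAI/IVIg mice (log2 fold change -2.56, adjusted p = 1.22e-04). Hspa5, encoding the main ER chaperone BiP, stood at 306, 513 and 258 FPKM in control and 74.6, 97.3 and 94.99 FPKM in TAI/IVIg mice (log2 fold change -1.95, adjusted p = 8.18e-04). Psat1, an enzyme of serine synthesis, stood at 5.14, 12.4 and 10.6 FPKM in control and 0.575, 1.47 and 0.252 FPKM in TAI/IVIg mice (log2 fold change -2.54, adjusted p = 7.88e-04). The groups did not overlap for any of these 4 genes. Atf4, which encodes the transcription factor of the integrated stress response, passed on the deposited scale alone (139, 121 and 139 FPKM in control and 68.8, 74.2 and 74.5 FPKM in TAI/IVIg mice, adjusted p of 0.00139 and 0.0903). The rise was Eif4ebp1, a repressor of cap-dependent translation (7.99, 7.81 and 9.02 FPKM in control and 18.1, 11.9 and 14.8 FPKM in TAI/IVIg mice, log2 fold change 0.76, adjusted p = 0.0176), whose call was lost without control mouse 2 or TAI/IVIg mouse 1.

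Of 13 respiratory chain subunits encoded in mitochondrial DNA, 12 rose and 0 fell (median 1.16). Of 81 encoded in the nucleus 3 rose and 14 fell (median -0.57, and -0.10 median-centred), a share of falls near the 15.9% over all genes tested. mt-Cytb, encoding cytochrome b, stood at 3099, 2551 and 2815 FPKM in control and 5690, 7381 and 9879 FPKM in TAI/IVIg mice (log2 fold change 1.41, adjusted p = 0.00260). mt-Nd4, a subunit of complex I, stood at 1208, 964 and 1082 FPKM in control and 2205, 2703 and 3755 FPKM in TAI/IVIg mice (log2 fold change 1.38, adjusted p = 0.00186). TAI/IVIg mouse 3 was the highest in both. mt-Co1, a subunit of cytochrome oxidase with one of the largest gains of mean FPKM, stood at 11723, 10512 and 10475 FPKM in control and 14892, 17979 and 24275 FPKM in TAI/IVIg mice (log2 fold change 0.78, adjusted p = 0.0463), a call that was lost without any 1 of the mice except TAI/IVIg mouse 1. Quantile normalization turned its log2 fold change to -0.31 (adjusted p = 0.322). mt-Atp8 was called although its groups overlapped (35.3, 26.9 and 16.4 FPKM in control and 33.5, 101 and 89.7 FPKM in TAI/IVIg mice, log2 fold change 1.39, adjusted p = 0.0307), and was not called without control mouse 2 or 3 or TAI/IVIg mouse 2 or 3. Mitochondrial genes have partial copies in the nuclear genome, so that a share of their reads is uncertain. The 12 mitochondrial rises became 5 without control mouse 2 or TAI/IVIg mouse 3, 6 without control mouse 3 and 7 without TAI/IVIg mouse 2.

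Among the nuclear subunits, the complex I gene Ndufa10 (35.6, 49.1 and 38.6 FPKM in control and 8.93, 16.1 and 14.2 FPKM in TAI/IVIg mice, log2 fold change -1.60, adjusted p = 8.62e-04) fell. Of the same complex, Ndufc2 (124, 153 and 132 FPKM in control and 42.8, 60.5 and 59.4 FPKM in TAI/IVIg mice, log2 fold change -1.33, adjusted p = 6.53e-04) and Ndufs8 (37.98, 55.2 and 43.7 FPKM in control and 13.6, 22.5 and 19.4 FPKM in TAI/IVIg mice, log2 fold change -1.27, adjusted p = 0.00158) fell too. Cox6b2 (10.02, 12.4 and 8.24 FPKM in control and 43.6, 27.8 and 41.3 FPKM in TAI/IVIg mice, log2 fold change 1.77, adjusted p = 0.00175) and Cox7a1 (34.3, 34.3 and 24.7 FPKM in control and 74.001, 81.8 and 94.4 FPKM in TAI/IVIg mice, log2 fold change 1.40, adjusted p = 7.44e-04), isoforms of cytochrome oxidase subunits, rose. The complex I subunit gene Ndufa1 rose with them (60.6, 66.4 and 57.8 FPKM in control and 81.4, 109 and 142 FPKM in TAI/IVIg mice, log2 fold change 0.80, adjusted p = 0.0132). None of these 6 genes overlapped between the groups. The 14 falls became 9 without control mouse 1, 5 without control mouse 2 and 7 without TAI/IVIg mouse 1.

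**Figure D3:**
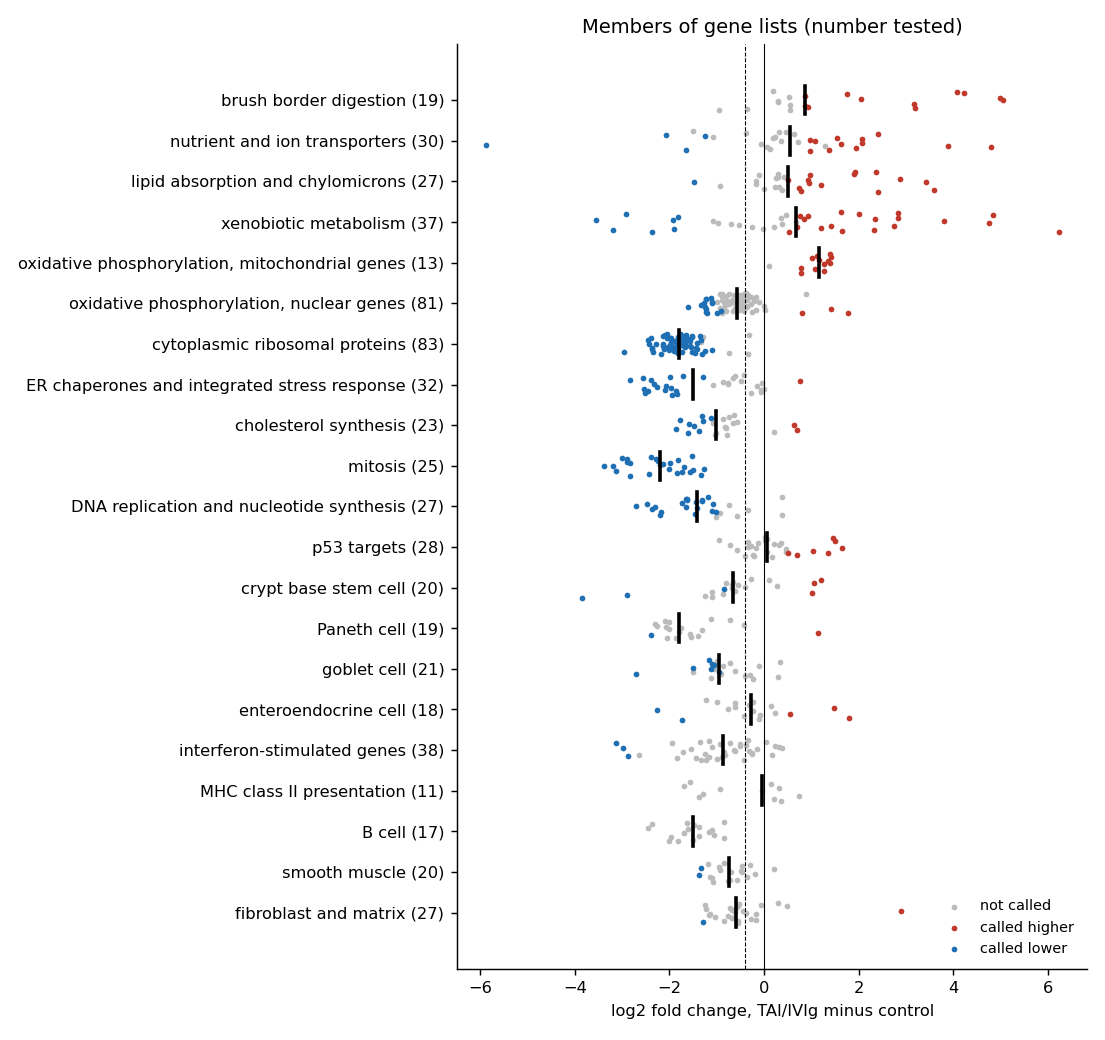
Each point is 1 tested member of a gene list (red called higher, blue called lower, grey not called), placed by its log2 fold change (TAI/IVIg minus control), with the number of members tested in brackets and a black bar at the list median. The solid line marks 0 and the dashed line the median of all genes, -0.41. Ribosomal protein and mitosis genes lie mostly to the left of it, and brush border enzymes mostly to the right.

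Of 20 crypt base stem cell genes 3 rose and 3 fell (median -0.66), shares not far from those over all genes tested. Lgr5, the receptor that marks these cells, stayed under 1 FPKM in every mouse (0.583, 0.981 and 0.371 FPKM in control and 0.683, 0.528 and 0.418 FPKM in TAI/IVIg mice) and was not tested. Olfm4, a secreted product of stem and early progenitor cells, stood at 8.39, 61.4 and 12.8 FPKM in the control mice and 0.113, 1.03 and 0.201 FPKM in the TAI/IVIg mice (log2 fold change -3.85 ± 0.65 (SE), adjusted p = 0.00204), with control mouse 2 well above the other controls. The chloride channel accessory gene Clca3b fell (10.97, 20.1 and 14.9 FPKM in control and 0.381, 2.98 and 0.781 FPKM in TAI/IVIg mice, log2 fold change -2.89, adjusted p = 0.00374). Axin2 (8.90, 9.93 and 7.34 FPKM in control and 18.1, 15.8 and 22.2 FPKM in TAI/IVIg mice, log2 fold change 1.02, adjusted p = 0.00269) and Sp5 (1.18, 0.943 and 0.880 FPKM in control and 1.93, 4.82 and 4.71 FPKM in TAI/IVIg mice, log2 fold change 1.21, adjusted p = 0.00491), both direct targets of Wnt signalling, rose. Clca4b, of the calcium-activated chloride channel regulator family, rose too (1550, 1000 and 876 FPKM in control and 2268, 2221 and 2409 FPKM in TAI/IVIg mice, log2 fold change 1.05, adjusted p = 0.00922), and none of the 3 overlapped. Its level was far above those of Lgr5 and Olfm4 in each of these mice. Whether its RNA came from crypt base cells was not tested, so its rise cannot be read as one of stem cells. Bmi1, a Polycomb gene of reserve stem cells, was called lower (11.2, 12.4 and 15.04 FPKM in control and 7.28, 7.48 and 5.36 FPKM in TAI/IVIg mice, log2 fold change -0.85, adjusted p = 0.00286), and lost the call in every omission except that of TAI/IVIg mouse 1.

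Genes of regenerating and fetal-like epithelium fell in 7 of 27 cases and rose in 4 (median -0.59). Beside Ly6a, its relative Ly6d fell (458, 115 and 324 FPKM in control and 15.1, 38.05 and 25.3 FPKM in TAI/IVIg mice, log2 fold change -3.34, adjusted p = 0.00112). The keratin gene Krt7 fell as well (26.95, 17.9 and 25.3 FPKM in control and 1.44, 3.69 and 1.83 FPKM in TAI/IVIg mice, log2 fold change -2.92, adjusted p = 8.25e-04). Clu, which marks revival stem cells, ranged from 1.82 to 113 FPKM over the 6 mice and was not called (16.5, 2.95 and 113 FPKM in control and 8.19, 74.5 and 1.82 FPKM in TAI/IVIg mice, log2 fold change -0.67, adjusted p = 0.717). Clu was highest in control mouse 3 and TAI/IVIg mouse 2. The B cell list described below was also highest in these mice of each group (mean log2 levels 5.19 and 3.14). Which cells the Clu RNA came from was not tested. Il33, an alarmin, was called higher (10.3, 9.61 and 9.79 FPKM in control and 24.3, 27.7 and 31.8 FPKM in TAI/IVIg mice, log2 fold change 1.40, adjusted p = 0.0218). The same was true of Cldn4, a tight junction gene (55.5, 35.1 and 45.3 FPKM in control and 157, 56.4 and 90.5 FPKM in TAI/IVIg mice, log2 fold change 1.05, adjusted p = 0.0266), and of Ccn2, a target of the YAP coactivator (1.19, 1.36 and 1.33 FPKM in control and 6.22, 3.07 and 1.88 FPKM in TAI/IVIg mice, log2 fold change 0.94, adjusted p = 0.0282). Il33 was not called without control mouse 2 or 3 or TAI/IVIg mouse 3, Cldn4 not without these or TAI/IVIg mouse 1, and Ccn2 not without any 1 of the control mice. Without TAI/IVIg mouse 1 the log2 fold change of Cldn4 was 0.67 and that of Ccn2 0.58, and the list held 1 rise without control mouse 2 or 3 and 2 without TAI/IVIg mouse 3.

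Paneth cell genes had a low median (-1.79 over 19 genes) with 1 call lower and 1 higher, and the mice of each group were far apart. Lyz1, encoding lysozyme, stood at 269, 1108 and 252 FPKM in control and 83.03, 368 and 32.95 FPKM in TAI/IVIg mice (log2 fold change -2.06, adjusted p = 0.0798). The defensin gene Defa24 stood at 418, 2390 and 440 FPKM in control and 121, 574 and 55.1 FPKM in TAI/IVIg mice (log2 fold change -2.27, adjusted p = 0.0687). Control mouse 2 and TAI/IVIg mouse 2 were the highest of their groups for both genes, and the groups overlapped. Mmp7, the protease that activates defensins, was called lower (29.6, 48.1 and 25.5 FPKM in control and 3.07, 15.5 and 3.13 FPKM in TAI/IVIg mice, log2 fold change -2.39, adjusted p = 0.00876), a call lost without control mouse 2 or TAI/IVIg mouse 1 or 3, whereas 6 Paneth genes were called lower without TAI/IVIg mouse 2. Pnliprp2, a lipase-related gene, rose (4.87, 10.5 and 6.36 FPKM in control and 19.7, 18.6 and 12.02 FPKM in TAI/IVIg mice, log2 fold change 1.14, adjusted p = 0.0140). Defensin genes are near-identical copies, and reads between them are uncertain.

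Among goblet cell genes 7 of 21 fell and 0 rose (median -0.95). Agr2, needed for mucin folding in the ER, stood at 283, 344 and 235 FPKM in the control mice and 36.998, 59.9 and 34.5 FPKM in the TAI/IVIg mice (log2 fold change -2.71 ± 0.30 (SE), adjusted p = 4.02e-04). The kallikrein gene Klk1 fell (20.8, 18.9 and 20.005 FPKM in control and 6.14, 7.70 and 5.48 FPKM in TAI/IVIg mice, log2 fold change -1.50, adjusted p = 4.52e-04). Atoh1, the secretory lineage factor, fell too (7.92, 8.96 and 6.02 FPKM in control and 2.39, 3.83 and 2.42 FPKM in TAI/IVIg mice, log2 fold change -1.16, adjusted p = 0.00199). The main secreted products were not called: Muc2, the gel-forming mucin, stood at 85.6, 88.8 and 68.6 FPKM in control and 65.6, 104 and 45.7 FPKM in TAI/IVIg mice (log2 fold change -0.24, adjusted p = 0.468). Tff3, a trefoil peptide, stood at 700, 713 and 521 FPKM in control and 548, 868 and 445 FPKM in TAI/IVIg mice (log2 fold change -0.10, adjusted p = 0.763). The count of falls was 3 without control mouse 1 or 2 and 4 without TAI/IVIg mouse 1 or 3, and the call for Atoh1 was lost in each of these.

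Among 18 enteroendocrine genes 3 rose and 2 fell (median -0.28), counts that differ little from the shares over all genes tested. Gip, an incretin made mainly in the upper small intestine, stood at 13.3, 16.6 and 12.4 FPKM in the control mice and 32.4, 63.1 and 65.3 FPKM in the TAI/IVIg mice (log2 fold change 1.80 ± 0.40 (SE), adjusted p = 0.00626), and Sst, encoding somatostatin, at 9.10, 10.3 and 6.41 FPKM in control and 26.5, 24.9 and 25.1 FPKM in TAI/IVIg mice (log2 fold change 1.49, adjusted p = 8.18e-04). Gcg, the source of GLP-1, which is made mainly further down the gut, stood at 13.7, 14.2 and 10.6 FPKM in control and 1.04, 3.66 and 1.48 FPKM in TAI/IVIg mice (log2 fold change -2.26, adjusted p = 0.00250). No treated mouse lay within the range of the control mice for these 3 hormones. The granule protein gene Chga fell (38.7, 33.1 and 33.3 FPKM in control and 10.5, 10.1 and 8.78 FPKM in TAI/IVIg mice, log2 fold change -1.74, adjusted p = 1.48e-04), while its relative Chgb was not called (11.6, 11.98 and 10.7 FPKM in control and 4.34, 10.8 and 7.62 FPKM in TAI/IVIg mice, log2 fold change -0.61, adjusted p = 0.161). Pcsk1, the prohormone convertase, rose (1.07, 0.959 and 1.29 FPKM in control and 2.34, 2.09 and 1.83 FPKM in TAI/IVIg mice, log2 fold change 0.55, adjusted p = 0.00982). In the tuft cell list 1 of 14 genes rose, the leukotriene synthase gene Ltc4s (0.454, 1.23 and 0.513 FPKM in control and 2.58, 4.06 and 3.999 FPKM in TAI/IVIg mice, log2 fold change 1.40, adjusted p = 0.00199). The 1 that fell was the keratin gene Krt18, which other epithelial cells also express (160, 175 and 162 FPKM in control and 37.5, 70.4 and 37.3 FPKM in TAI/IVIg mice, log2 fold change -1.82, adjusted p = 0.00437). The call for Krt18 was lost without TAI/IVIg mouse 3, and 2 tuft genes rose without TAI/IVIg mouse 1. Trpm5, the tuft cell cation channel, was not called (1.31, 1.72 and 1.14 FPKM in control and 1.61, 2.85 and 2.31 FPKM in TAI/IVIg mice, log2 fold change 0.44, adjusted p = 0.07004).

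Targets of the DNA damage factor p53 rose in 7 of 28 cases and fell in 0 (median 0.06). Pmaip1, encoding the pro-death protein NOXA, stood at 48.7, 49.2 and 39.1 FPKM in the control mice and 208, 114 and 124 FPKM in the TAI/IVIg mice (log2 fold change 1.64 ± 0.24 (SE), adjusted p = 0.00121). Phlda3, an inhibitor of AKT signalling, stood at 2.21, 2.47 and 2.37 FPKM in control and 7.78, 11.6 and 6.005 FPKM in TAI/IVIg mice (log2 fold change 1.45, adjusted p = 0.00137). The antiproliferative gene Btg2 stood at 22.4, 29.05 and 36.7 FPKM in control and 114, 68.4 and 73.8 FPKM in TAI/IVIg mice (log2 fold change 1.5, adjusted p = 0.00158). In all 3 genes every TAI/IVIg mouse lay above every control mouse. The best known targets did not pass on both scales: Cdkn1a, encoding the cell cycle inhibitor p21, stood at 118, 120 and 85.2 FPKM in control and 148, 109 and 104 FPKM in TAI/IVIg mice (log2 fold change 0.16, adjusted p = 0.479). Mdm2, encoding the ubiquitin ligase of p53, stood at 17.6, 17.1 and 16.4 FPKM in control and 20.9, 22.2 and 20.8 FPKM in TAI/IVIg mice (adjusted p of 0.119 as deposited and 0.00769 median-centred). In the apoptosis list 5 of 26 rose and 0 fell (median -0.04). Bok, a pore-forming relative of BAX, stood at 1.81, 3.11 and 3.33 FPKM in control and 22.2, 13.9 and 15.7 FPKM in TAI/IVIg mice (log2 fold change 2.28, adjusted p = 2.01e-04). Bcl2l1, encoding the survival protein BCL-XL, stood at 11.6, 8.75 and 10.7 FPKM in control and 26.6, 25.1 and 28.6 FPKM in TAI/IVIg mice (log2 fold change 1.30, adjusted p = 3.51e-04). Bax itself was not called (11.2, 13.8 and 14.7 FPKM in control and 13.02, 16.5 and 11.1 FPKM in TAI/IVIg mice, log2 fold change 0.02, adjusted p = 0.932).

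Of 18 immediate early genes, which respond within minutes to growth factors and stress, 4 rose and 0 fell (median 0.02). Fos stood at 44.4, 50.1 and 37.9 FPKM in control and 178, 80.2 and 118 FPKM in TAI/IVIg mice (log2 fold change 1.42, adjusted p = 0.00313) and Fosl2 at 17.9, 19.5 and 14.005 FPKM in control and 65.1, 39.1 and 51.6 FPKM in TAI/IVIg mice (log2 fold change 1.53, adjusted p = 8.62e-04). Egr1 was not called (3.82, 8.05 and 6.39 FPKM in control and 8.17, 6.06 and 2.66 FPKM in TAI/IVIg mice, log2 fold change -0.15, adjusted p = 0.735).

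Interferon-stimulated genes varied widely among the TAI/IVIg mice. The mean log2 level of the list was between 6.20 and 6.67 in control mice and between 4.26 and 6.74 in TAI/IVIg mice, highest in mouse 1 and lowest in mouse 3. Of 38, 3 fell and 0 rose (median -0.87). Bst2, the virion tether tetherin, stood at 318, 340 and 354 FPKM in the control mice and 98.2, 47.6 and 14.99 FPKM in the TAI/IVIg mice (log2 fold change -2.99 ± 0.54 (SE), adjusted p = 0.00270). Ifi27l2a stood at 237, 219 and 382 FPKM in control and 61.5, 50.7 and 8.37 FPKM in TAI/IVIg mice (log2 fold change -3.12, adjusted p = 0.00422) and Ifi44 at 69.7, 63.1 and 52.1 FPKM in control and 17.4, 7.60 and 2.78 FPKM in TAI/IVIg mice (log2 fold change -2.88, adjusted p = 0.00319). These 3 genes were lower in every TAI/IVIg mouse than in any control mouse. Isg15, a ubiquitin-like antiviral protein, stood at 900, 590 and 768 FPKM in control and 1012, 311 and 102 FPKM in TAI/IVIg mice (log2 fold change -1.22, adjusted p = 0.167). Ifit1, a sensor of foreign RNA caps, stood at 232, 130 and 185 FPKM in control and 928, 232 and 56.03 FPKM in TAI/IVIg mice (log2 fold change 0.37, adjusted p = 0.720). TAI/IVIg mouse 1 was above every control mouse in Isg15 and Ifit1, while mouse 3 was below every one. Without TAI/IVIg mouse 1, 17 of the list were called lower. The guanylate-binding protein list held 1 rise and 0 falls among 16 genes (median -0.95), and without TAI/IVIg mouse 1 it held 8 falls. The rise was Irf1, an interferon regulatory factor (40.6, 34.1 and 38.7 FPKM in control and 97.5, 59.9 and 50.3 FPKM in TAI/IVIg mice, log2 fold change 0.80, adjusted p = 0.0181), which was not called without control mouse 2 and had a log2 fold change of 0.53 without TAI/IVIg mouse 1. Irgm1 (99.8, 83.7 and 97.3 FPKM in control and 64.3, 19.4 and 4.24 FPKM in TAI/IVIg mice, log2 fold change -2.30, adjusted p = 0.0322) passed on the deposited scale alone, and Gbp2 was not called (29.8, 21.3 and 43.6 FPKM in control and 51.3, 10.9 and 4.34 FPKM in TAI/IVIg mice, log2 fold change -1.07, adjusted p = 0.266).

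Of 26 MHC class I presentation genes 3 rose and 5 fell (median -0.54), shares near those over all genes tested. The light chain gene B2m was not called (2984, 3250 and 2798 FPKM in control and 3158, 2720 and 3112 FPKM in TAI/IVIg mice, log2 fold change -0.01, adjusted p = 0.976), nor was H2-K1 (968, 1076 and 1030 FPKM in control and 1054, 726 and 894 FPKM in TAI/IVIg mice, log2 fold change -0.22, adjusted p = 0.318). Among non-classical heavy chains H2-Q2 (350, 303 and 234 FPKM in control and 621, 608 and 763 FPKM in TAI/IVIg mice, log2 fold change 1.18, adjusted p = 0.00144) rose. So did H2-Q1 (86.5, 75.005 and 53.3 FPKM in control and 157, 142 and 167 FPKM in TAI/IVIg mice, log2 fold change 1.13, adjusted p = 0.00182) and H2-Bl (34.4, 19.2 and 21.98 FPKM in control and 65.2, 54.7 and 64.6 FPKM in TAI/IVIg mice, log2 fold change 1.29, adjusted p = 0.00216). Their relatives H2-Q7 (6.23, 8.01 and 12.8 FPKM in control and 0.926, 1.16 and 0.489 FPKM in TAI/IVIg mice, log2 fold change -2.39, adjusted p = 3.73e-04) and H2-Q6 (5.71, 4.97 and 7.65 FPKM in control and 1.57, 0.790 and 0.429 FPKM in TAI/IVIg mice, log2 fold change -1.91, adjusted p = 9.42e-04) fell. H2-T22 was called lower too (113, 101 and 109 FPKM in control and 58.8, 31.3 and 20.8 FPKM in TAI/IVIg mice, log2 fold change -1.64, adjusted p = 0.00320), but not without control mouse 1 or 2 or TAI/IVIg mouse 2 or 3. These genes are close paralogs whose reads may be divided imperfectly. Leaving out control mouse 1 brought the falls of the list to 3, and leaving out TAI/IVIg mouse 1 to 9, while 2 were left when mouse 2 or 3 of that group was omitted. Of 11 MHC class II genes none was called by limma (median -0.05). H2-Aa (31.9, 34.6 and 159 FPKM in control and 49.6, 58.3 and 129 FPKM in TAI/IVIg mice) and Cd74 (177, 247 and 664 FPKM in control and 304, 304 and 601 FPKM in TAI/IVIg mice) were highest in control mouse 3. Without that mouse 1 class II gene was called higher.

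Of 27 cytokine and chemokine genes, 3 rose and 3 fell (median -0.59). Il15, which sustains intraepithelial lymphocytes, stood at 4.05, 5.11 and 3.35 FPKM in the control mice and 21.5, 13.4 and 13.3 FPKM in the TAI/IVIg mice (log2 fold change 1.70 ± 0.20 (SE), adjusted p = 5.68e-04). The membrane chemokine genes Cx3cl1 (26.2, 22.8 and 20.5 FPKM in control and 48.7, 48.4 and 63.7 FPKM in TAI/IVIg mice, log2 fold change 1.17, adjusted p = 9.89e-04) and Cxcl16 (13.4, 11.2 and 11.5 FPKM in control and 20.4, 19.1 and 16.9 FPKM in TAI/IVIg mice, log2 fold change 0.60, adjusted p = 0.0124) rose. Il18bp, encoding the decoy that neutralizes IL-18, fell (55.4, 37.3 and 41.4 FPKM in control and 13.9, 7.53 and 5.60 FPKM in TAI/IVIg mice, log2 fold change -2.26, adjusted p = 7.49e-04). Ccl8 (11.04, 8.08 and 9.83 FPKM in control and 4.24, 0.691 and 0.350 FPKM in TAI/IVIg mice, log2 fold change -2.21, adjusted p = 0.00691) and Ccl28 (2.61, 3.82 and 4.33 FPKM in control and 0.172, 0.717 and 1.51 FPKM in TAI/IVIg mice, log2 fold change -1.40, adjusted p = 0.00390) were called lower. Ccl8 was not called without any 1 of the control mice or TAI/IVIg mouse 2 or 3, and Ccl28 not without control mouse 2 or 3 or TAI/IVIg mouse 1 or 2, while the list held 1 fall without TAI/IVIg mouse 2. Il1b, an inflammatory cytokine at a low level, was not called (1.15, 2.28 and 1.97 FPKM in control and 2.60, 1.64 and 0.5003 FPKM in TAI/IVIg mice, log2 fold change -0.19, adjusted p = 0.659).

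Lymphocyte genes differed widely between mice of the same group. None of 17 B cell genes was called (median -1.51). Ms4a1, encoding CD20, stood at 4.51, 0.137 and 29.9 FPKM in control and 0.00899, 5.37 and 0.0675 FPKM in TAI/IVIg mice (log2 fold change -1.61, adjusted p = 0.299). Control mice 1 and 3 and TAI/IVIg mouse 2 held this signal, and the other three were under 1 FPKM. In step with that, the mean log2 level of the list ran from 0.47 to 5.19 in control and from 0.20 to 3.14 in TAI/IVIg mice. Of 20 T cell and intraepithelial lymphocyte genes 1 fell (median -0.96), the chemokine gene Xcl1 (1.65, 3.68 and 1.77 FPKM in control and 0.319, 0.338 and 0.228 FPKM in TAI/IVIg mice, log2 fold change -1.33, adjusted p = 0.00319). Xcl1 passed the filter through the control mice alone and could only be lower, and no member was called lower without control mouse 1 or 2 or any 1 of the TAI/IVIg mice. Without TAI/IVIg mouse 2, 1 member was called higher. Cd8a was not called (2.47, 3.24 and 5.92 FPKM in control and 1.90, 2.88 and 3.03 FPKM in TAI/IVIg mice, log2 fold change -0.39, adjusted p = 0.214), and Cd3e reached 1 FPKM in control mouse 3 alone and was not tested.

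The plasma cell list held 2 falls among 18 genes (median -0.90), the ER genes Txndc5 (35.2, 44.7 and 41.05 FPKM in control and 12.1, 20.9 and 15.9 FPKM in TAI/IVIg mice, log2 fold change -1.28, adjusted p = 0.00230) and Derl3 (2.43, 3.72 and 3.19 FPKM in control and 0.781, 1.42 and 0.748 FPKM in TAI/IVIg mice, log2 fold change -1.06, adjusted p = 0.00199), which other secretory cells also express. The antibody genes themselves were not called: Igha, the IgA heavy chain, stood at 427, 531 and 390 FPKM in control and 314, 308 and 458 FPKM in TAI/IVIg mice (log2 fold change -0.33, adjusted p = 0.372) and Jchain at 179, 154 and 144 FPKM in control and 105, 114 and 173 FPKM in TAI/IVIg mice (log2 fold change -0.31, adjusted p = 0.316). Among 13 genes of Fc receptors and immunoglobulin transport 1 rose and 0 fell (median -0.85). The rise was Fcgrt, the neonatal Fc receptor that carries IgG across cells and protects it from breakdown (26.2, 25.8 and 25.3 FPKM in the control mice and 35.8, 50.01 and 55.4 FPKM in the TAI/IVIg mice, log2 fold change 0.82 ± 0.16 (SE), adjusted p = 0.00363). Fcgr3, an activating receptor for IgG, was not called (5.47, 6.42 and 5.39 FPKM in control and 7.98, 6.85 and 3.95 FPKM in TAI/IVIg mice, log2 fold change 0.06, adjusted p = 0.836). Without TAI/IVIg mouse 1, 2 genes of this list rose.

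In the macrophage and dendritic cell list 2 of 19 rose and 1 fell (median -0.38). Mertk, a receptor for clearing dead cells, was among those that rose (26.2, 18.5 and 16.5 FPKM in control and 56.7, 42.6 and 43.6 FPKM in TAI/IVIg mice, log2 fold change 1.20, adjusted p = 0.00234). Cd68, a lysosomal protein gene, fell (8.79, 10.6 and 9.93 FPKM in control and 3.45, 5.71 and 2.56 FPKM in TAI/IVIg mice, log2 fold change -1.18, adjusted p = 0.00341), with 2 falls in the list without control mouse 3 or TAI/IVIg mouse 2, and Csf1r was not called (6.98, 9.83 and 6.88 FPKM in control and 5.95, 8.58 and 4.52 FPKM in TAI/IVIg mice, log2 fold change -0.30, adjusted p = 0.283). Only 7 of 21 neutrophil genes passed the filter, of which 1 rose, the protease gene Mmp9 (0.276, 0.416 and 0.620 FPKM in control and 2.44, 4.59 and 4.18 FPKM in TAI/IVIg mice, log2 fold change 1.70, adjusted p = 0.00186), which passed the filter through the TAI/IVIg mice alone and could only be higher. Without control mouse 2 another was called lower. The calgranulin gene S100a9 was not called (0.220, 0.217 and 1.11 FPKM in control and 1.28, 1.35 and 0.685 FPKM in TAI/IVIg mice, log2 fold change 0.51, adjusted p = 0.231). Of 12 mast cell genes 1 passed the filter, and it was not called.

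The smooth muscle and fibroblast lists were at their lowest mean level in TAI/IVIg mouse 3. Of 20 smooth muscle genes 2 fell (median -0.75), Lmod1 (9.31, 9.72 and 10.2 FPKM in control and 4.08, 4.52 and 1.57 FPKM in TAI/IVIg mice, log2 fold change -1.37, adjusted p = 0.00682) and Smtn (14.9, 15.97 and 20.01 FPKM in control and 7.88, 7.24 and 3.80 FPKM in TAI/IVIg mice, log2 fold change -1.34, adjusted p = 0.00444). Each call was lost without TAI/IVIg mouse 3 or any 1 of the control mice, while 5 members were called lower when mouse 1 of the TAI/IVIg group was left out and 1 when its mouse 2 was. Myh11, the smooth muscle myosin, was not called (61.6, 60.7 and 71.3 FPKM in control and 79.5, 41.6 and 10.99 FPKM in TAI/IVIg mice, log2 fold change -0.92, adjusted p = 0.198), nor was Acta2 (log2 fold change -1.08, adjusted p = 0.0874), which was called lower without TAI/IVIg mouse 1. Of 27 fibroblast and matrix genes 1 rose and 1 fell (median -0.60). The rise was Fbln1, encoding the matrix protein fibulin-1 (8.22, 12.3 and 5.70 FPKM in the control mice and 58.2, 68.7 and 79.96 FPKM in the TAI/IVIg mice, log2 fold change 2.89 ± 0.24 (SE), adjusted p = 1.48e-04). The fall, Dcn, encoding decorin (18.1, 20.5 and 29.5 FPKM in control and 11.1, 11.7 and 4.53 FPKM in TAI/IVIg mice, log2 fold change -1.29, adjusted p = 0.0109), was lost without TAI/IVIg mouse 3 or any 1 of the control mice, and 5 members were called lower without TAI/IVIg mouse 1. Col1a1 (5.35, 9.77 and 7.34 FPKM in control and 6.35, 5.06 and 2.98 FPKM in TAI/IVIg mice, log2 fold change -0.56, adjusted p = 0.124) was not called, and Pdgfra (7.42, 10.6 and 6.44 FPKM in control and 5.31, 4.996 and 3.59 FPKM in TAI/IVIg mice, log2 fold change -0.69, adjusted p = 0.0375) passed on the deposited scale alone.

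Of 17 endothelial genes 1 fell (median -0.17), Lyve1, a receptor of lymphatic vessels and some macrophages (23.005, 16.1 and 10.6 FPKM in the control mice and 2.63, 3.43 and 1.94 FPKM in the TAI/IVIg mice, log2 fold change -2.22 ± 0.26 (SE), adjusted p = 5.36e-04). Pecam1 (5.24, 6.94 and 11.2 FPKM in control and 4.39, 6.30 and 2.53 FPKM in TAI/IVIg mice, log2 fold change -0.71, adjusted p = 0.0787) and Cdh5 (2.41, 4.28 and 2.82 FPKM in control and 2.63, 2.98 and 1.66 FPKM in TAI/IVIg mice, log2 fold change -0.28, adjusted p = 0.390) were not called. Of 11 enteric neuron and glia genes 1 rose (median -0.22), the receptor tyrosine kinase gene Ret (1.12, 1.06 and 1.32 FPKM in control and 5.96, 4.45 and 6.17 FPKM in TAI/IVIg mice, log2 fold change 1.58, adjusted p = 5.92e-04), and without TAI/IVIg mouse 1 another was called lower.

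**Figure D4:**
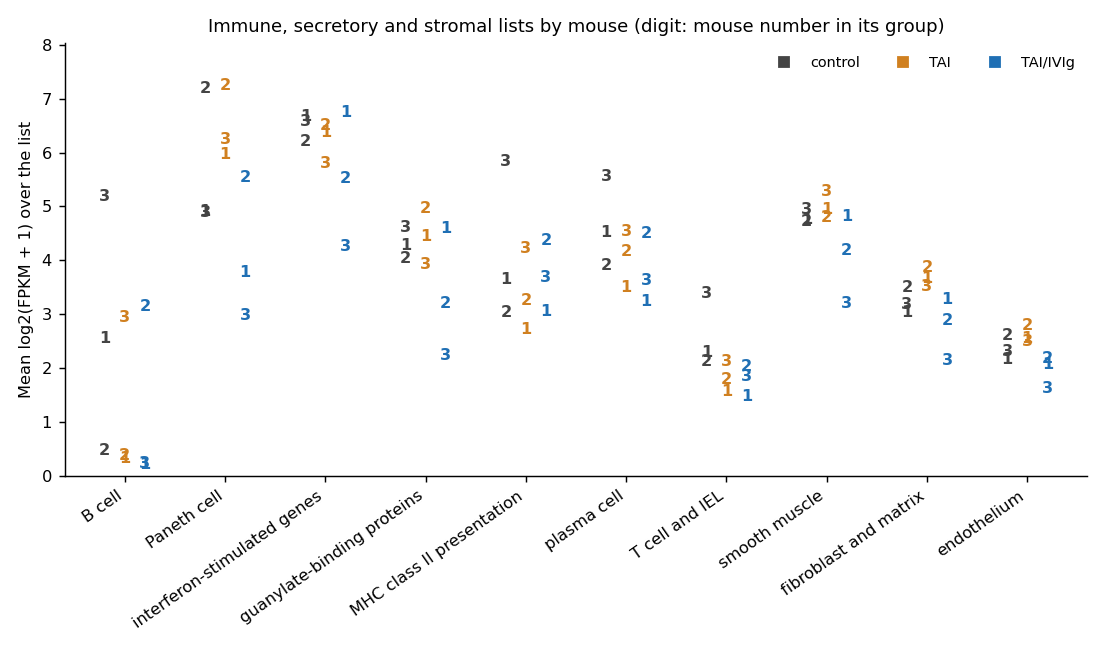
Each digit is 1 mouse, numbered within its group (grey control, orange TAI, blue TAI/IVIg), placed at the mean log2(FPKM + 1) of the tested members of the list on the x axis. In TAI/IVIg mice the interferon-stimulated and guanylate-binding protein lists are highest in mouse 1 and lowest in mouse 3, and the B cell list is low, between 0.20 and 0.47, in mice 1 and 3 and in control mouse 2.

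Genes that mark position along the small intestine were examined because the jejunum grades into the ileum. Of 11 such genes 3 rose and 3 fell (median -0.03). Fabp6, the bile acid-binding protein of ileal enterocytes, stood at 7415, 8177 and 7326 FPKM in the control mice and 1351, 208 and 229 FPKM in the TAI/IVIg mice (log2 fold change -4.25 ± 0.66 (SE), adjusted p = 0.00156). On GRCm38 it lies at chr11:43596049-43601540. Slc10a2, the ileal bile acid carrier, stood at 138, 64.9 and 110 FPKM in control and 29.5, 23.1 and 10.96 FPKM in TAI/IVIg mice (log2 fold change -2.28, adjusted p = 0.00197). Osr2, a transcription factor gene of the lower intestine, stood at 13.1, 20.02 and 13.04 FPKM in control and 4.59, 7.08 and 7.21 FPKM in TAI/IVIg mice (log2 fold change -1.16, adjusted p = 0.00266), its call lost without control mouse 1 or 2 or TAI/IVIg mouse 1 or 2. Fgf15, the ileal hormone that limits bile acid synthesis, was not called (30.3, 16.4 and 19.5 FPKM in control and 25.3, 5.85 and 6.02 FPKM in TAI/IVIg mice, log2 fold change -1.05, adjusted p = 0.121), though it was without TAI/IVIg mouse 1. Against this direction, Cubn (4.51, 6.42 and 3.36 FPKM in control and 21.8, 20.6 and 16.4 FPKM in TAI/IVIg mice, log2 fold change 1.86, adjusted p = 5.97e-04) and Amn (31.6, 40.8 and 24.9 FPKM in control and 106, 80.7 and 99.3 FPKM in TAI/IVIg mice, log2 fold change 1.54, adjusted p = 0.00169), which together form the receptor for vitamin B12 bound to its carrier, rose. Gata4, which marks duodenum and jejunum and is absent from the ileum, was not called and overlapped between groups (21.2, 22.6 and 16.9 FPKM in the control mice and 16.8, 20.1 and 22.2 FPKM in the TAI/IVIg mice, log2 fold change -0.03, adjusted p = 0.887).

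Lct, Cyp3a11 and Slc46a1, among the 15 largest rises, and Fabp1 and Apoa4, which also rose, are genes of the upper small intestine, and the 15 largest falls include Fabp6, with Slc10a2 and Slc51a also lower. Whether the stretch of jejunum sampled differed between the groups was not tested. Apoc2, an apolipoprotein gene, was not called (3.40, 0.418 and 2.91 FPKM in control and 2.19, 2.97 and 2.57 FPKM in TAI/IVIg mice, log2 fold change 0.30, adjusted p = 0.572). Neither was Muc3 (407, 344 and 279 FPKM in control and 699, 420 and 455 FPKM in TAI/IVIg mice, log2 fold change 0.59, adjusted p = 0.0558), although it was without control mouse 1 or TAI/IVIg mouse 2.

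**Figure D5:**
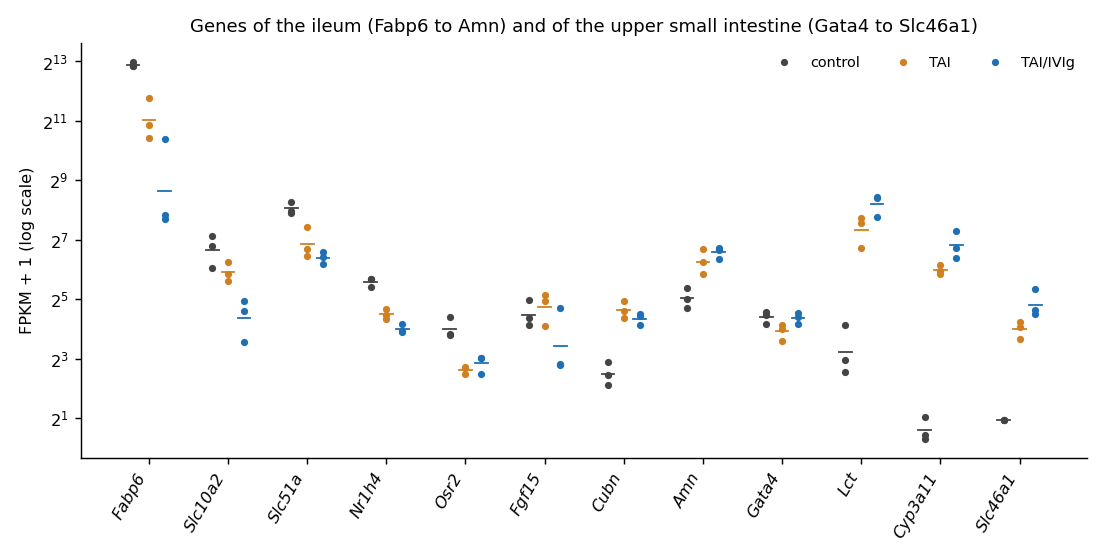
Each dot is 1 mouse and each short line the mean of 3 mice on the log scale (FPKM + 1, base-2 log axis) for genes of the ileum, from Fabp6 to Amn, and of the upper small intestine, from Gata4 to Slc46a1, in control (grey), TAI (orange) and TAI/IVIg (blue) mice. Fabp6 and Slc10a2 are lower and Lct and Cyp3a11 higher in all TAI/IVIg mice than in all control mice, whereas Cubn and Amn are higher and Gata4 overlaps.

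Among lists for tissues that can be carried along in dissection, the erythroid and acinar pancreas lists gave few genes, while most adipocyte genes passed the filter. Of 7 erythroid genes 2 passed the filter, Hba-a1 (4.32, 2.58 and 1.64 FPKM in control and 2.12, 2.17 and 1.10 FPKM in TAI/IVIg mice, log2 fold change -0.42, adjusted p = 0.206) and Hbb-bs (5.39, 4.57 and 3.46 FPKM in control and 0.869, 1.84 and 2.48 FPKM in TAI/IVIg mice, log2 fold change -1.03, adjusted p = 0.0149), and neither was called. Of 9 acinar pancreas genes 1 passed, Cela1, which was called higher at a low level (1.17, 1.42 and 1.43 FPKM in control and 1.86, 2.42 and 2.59 FPKM in TAI/IVIg mice, log2 fold change 0.49, adjusted p = 0.0181) and not without TAI/IVIg mouse 3. Of 10 adipocyte genes 8 passed and 1 rose, the lipase gene Lipe (6.61, 7.78 and 6.22 FPKM in control and 19.02, 17.6 and 17.1 FPKM in TAI/IVIg mice, log2 fold change 1.27, adjusted p = 4.02e-04), which enterocytes also express. The fat hormone gene Adipoq was not called (3.88, 9.83 and 6.44 FPKM in control and 6.84, 10.8 and 0.820 FPKM in TAI/IVIg mice, log2 fold change -0.41, adjusted p = 0.689).

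For the TAI mice the log2 fold changes are taken against the same 3 control mice and are therefore not independent of those above. They were 5.40 in TAI mice and 6.23 in TAI/IVIg mice for Cyp3a11, 5.12 in TAI mice and 5.03 in TAI/IVIg mice for Ada, -5.60 in TAI mice and -5.89 in TAI/IVIg mice for Car4, -2.94 in TAI mice and -3.39 in TAI/IVIg mice for Ccnb2 and -1.90 in TAI mice and -2.96 in TAI/IVIg mice for Rps2. Fabp6 stood at 1372, 1874 and 3529 FPKM in the TAI mice (log2 fold change -1.87 against -4.25 in TAI/IVIg mice), Mmp7 at 30.9, 68.8 and 25.8 FPKM (0.19 against -2.39), and Phlda3 at 15.7, 20.96 and 14.4 FPKM (2.41 against 1.45). These 8 genes were picked after their values were seen, and each of the last 3 had an adjusted p of 0.380 between the TAI/IVIg and TAI mice. TAI against control called 1065 of the genes tested higher and 1861 lower. In lists also picked after seeing them, it called 67 of 83 ribosomal protein genes lower and 0 higher. Of 32 ER and integrated stress response genes, 18 were lower and 1 higher. Of 19 brush border genes 10 were higher and 0 lower, and of 27 fat absorption genes 12 were higher and 1 lower. Other lists, picked in the same way, had median log2 fold changes of opposite sign in the TAI and the TAI/IVIg mice. The medians were 0.71 and -1.79 for Paneth cell genes, 0.24 and -0.75 for smooth muscle, and 0.34 and -0.60 for fibroblast and matrix. These differences between lists were not tested. The direct comparison of TAI/IVIg with TAI mice called no gene by limma on either scale, with a smallest adjusted p of 0.380 as deposited. Without adjustment, 215 genes were higher and 1302 lower at p below 0.05 as deposited, and 964 higher and 577 lower after median-centring. limma voom on the recovered reads also called 0 genes with either set of library sizes. A difference between the TAI/IVIg and TAI mice was thus not detected for any single gene with 3 mice per group, which does not show that the groups were alike.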

How the data were processed

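RNA-seq was measured in the jejunum of 9 mice, 3 per group, and the groups were taken from the sample labels. The authors deposited FPKM values per gene for each mouse, and the submitters' processing notes name FastQC, Trimmomatic, STAR, featureCounts and DESeq2 and the builds mm10 and GRCm38, with versions not given in the sources used here. Every value of the 31685 genes matched a whole number of reads within 0.001 reads, from which the depth per mouse was recovered (16771223 to 17983912 reads assigned to genes in the 6 mice compared). FPKM divides by the total of each library, so that a gain in a few abundant genes lowers the values of all others.

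Genes with at least 1 FPKM in at least 3 of the 6 mice were tested with limma 3.58.1 in R 4.3.3 on log2(FPKM + 1), with a variance trend, all 9 mice in 1 fit and Benjamini-Hochberg adjustment over the 12381 genes. The fit was run on the FPKM as deposited and after the library medians were set equal, and a call needed an adjusted p below 0.05 with the same sign in both. An adjusted p printed alone is that of the deposited scale. The steps were tested on simulated data. P-values measure the spread between these mice, and no source states separate cages or litters.

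The members and the 44 gene lists were chosen with earlier results of these data known. The genes named were the 15 largest rises and 15 largest falls among calls that held whichever mouse was left out, without overlap between mice, with at least 5 FPKM in the higher group and a symbol that is neither a predicted gene nor an immunoglobulin or T cell receptor segment. They were joined by the first 2 members and up to 3 called members per direction of each list, by the 5 largest gains and losses of mean FPKM, and by Vil1, Lgr5, Cd3e and the uncalled ribosomal protein genes, added after the values were seen. Some genes that this rule names are not reported here. Identifiers were paired with symbols for 31146 genes from GENCODE mouse release 21. Promoters were read from RefSeq on GRCm38.p6. The 17 alternatives covered the scaling, the pseudocount, the filter, the mice in the fit, the variance trend, a replicate block, limma voom on recovered reads and the omission of each mouse.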

Additional observations from a re-analysis of the deposited data

How the results depend on the processing

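The count of genes called higher, 1149, was 899 to 1125 when 1 mouse was left out, and it rose to 2707 with the library medians set equal alone, 2388 with quantile normalization and 2400 with limma voom on recovered reads with median-ratio library sizes. The count called lower, 1969, was 1438 to 1893 when 1 mouse was left out, and it rose to 4867 with FPKM as deposited alone, 3530 without a filter and 4879 with limma voom and total library sizes, which was added once the data had been seen. Both counts stayed within 1.5 times under the other alternatives, and no gene was called between TAI/IVIg and TAI mice under any of them. The fit of the 6 mice compared gives no value for that last comparison. The 319 genes bounded within 1.5-fold of control became 2152 with FPKM as deposited alone, 3264 with the library medians set equal alone, 3519 with quantile normalization, 7 with a pseudocount of 0.1, 14805 without a filter, 19 with a fit of the 6 mice compared, and 1761 or 1284 with limma voom and median-ratio or total library sizes. They numbered 4 to 452 when 1 mouse was left out, with 13 and 43 without control mouse 1 or 2 and 4 and 193 without mouse 2 or 3 of the treated group. mt-Co1 turned from a log2 fold change of 0.78 to -0.31 under quantile normalization. The cause of these changes was not tested. Of 163 named genes with a call, 11 to 23 lost it when 1 mouse was left out, 13 in the fit of the 6 mice compared, 8 without a filter, 5 with a pseudocount of 0.1 and 3 with quantile normalization. No source states that the replicate numbers pair the mice, which were treated as unpaired. Deviations from the group means of control and TAI/IVIg mice with the same number had correlations across genes of 0.191, -0.142 and -0.303. With 3 mice per group these values cannot decide whether the mice were paired. The fit with a replicate block called 1162 genes higher and 1949 lower, and 6 of the 163 named genes lost their call under it. Depth was even. The control values of Mbl2 rest on 1, 5 and 4 reads.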
